A study of Mus musculus with 4 samples.

Results

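The ETS factors form a family of transcription factors defined by a shared DNA-binding domain, the ETS domain. The 23 member genes were taken from a named list (*Ets1*, *Ets2*, *Erg*, *Fli1*, *Fev*, *Gabpa*, *Etv1*, *Etv3*, *Etv4*, *Etv5*, *Etv6*, *Elk1*, *Elk3*, *Elk4*, *Erf*, *Elf1*, *Elf2*, *Elf3*, *Elf4*, *Ehf*, *Spdef*, *Spi1* and *Spib*) out of 22238 protein-coding genes of the mm9 annotation. Their sites are the ATAC-seq intervals with their centre 3000 bp or less from the start (TSS, transcription start site) of any protein-coding transcript of these genes, which gave 34 of 119609 intervals. To these come 26 of 709 footprint motifs, those whose name begins with that of an ETS factor; the table held 0 heterodimer motifs with an ETS partner.

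ATAC-seq, in which a transposase cuts accessible DNA, was performed on iMEF2 cells, a single line of mouse embryo fibroblasts in which exon 4 of *Ash2l* is flanked by loxP sites and which expresses Cre-ER, a Cre recombinase switched on by tamoxifen, and an shRNA against *Arf* for immortalization. Ash2l is a core subunit of the histone H3K4 methyltransferase complexes. Cells were grown for 7 days with 5 nM 4-hydroxytamoxifen (+HOT, 2 libraries) or with the solvent ethanol (-HOT, 2 libraries), and the 2 libraries of a condition are technical replicates, so that p-values measure the spread between these libraries only. Cells with intact *Ash2l* under HOT were not analysed here, and HOT, Cre activity and loss of Ash2l cannot be told apart.

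ETS factors bind a GGAA core, and the bases around it favour one or another subfamily. Many of them are end points of RAS and ERK signalling: ERK phosphorylates Ets1, Ets2, Elk1 and the PEA3 factors (Etv1, Etv4 and Etv5), and it drives the repressor Erf out of the nucleus. In fibroblasts the ternary complex factors Elk1, Elk3 and Elk4 act with SRF on immediate-early genes, and Gabpa binds the promoters of many housekeeping genes. Fli1, Erg and the SPI factors are best known from blood and vessel cells, and Elf3, Ehf and Spdef from epithelia.

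Shown here are the central bases of the member site with the most negative change, at the *Etv1* promoter, and of both gained sites, since the values further on turn on them. The lost site at the *Etv1* promoter is given from the first base of the first intron, 100 to 296 bases after the TSS (mm9, chr12:39506067-39506263, plus strand), the annotated exon before it being left out. The gained site at the same gene lies upstream (chr12:39504190-39504489, plus strand), and the gained site at *Spdef* lies in an intron (chr17:27865168-27865467, minus strand). Capitals mark each GGAA core on either strand, of which the printed stretches held 3, 2 and 5. The *Etv1* promoter stretch is short of the full central window of 300 bases, which held 6 cores.
Etv1 promoter site, lost: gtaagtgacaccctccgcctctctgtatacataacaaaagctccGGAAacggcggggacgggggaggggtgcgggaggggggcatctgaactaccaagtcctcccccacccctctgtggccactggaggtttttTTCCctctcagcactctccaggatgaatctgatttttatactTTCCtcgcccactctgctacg
Etv1 upstream site, gained: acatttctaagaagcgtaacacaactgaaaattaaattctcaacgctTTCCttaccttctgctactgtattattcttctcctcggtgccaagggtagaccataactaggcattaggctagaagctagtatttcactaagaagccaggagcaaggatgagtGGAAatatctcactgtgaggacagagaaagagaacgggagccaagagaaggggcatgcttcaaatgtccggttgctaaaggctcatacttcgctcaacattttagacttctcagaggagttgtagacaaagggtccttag
Spdef site, gained: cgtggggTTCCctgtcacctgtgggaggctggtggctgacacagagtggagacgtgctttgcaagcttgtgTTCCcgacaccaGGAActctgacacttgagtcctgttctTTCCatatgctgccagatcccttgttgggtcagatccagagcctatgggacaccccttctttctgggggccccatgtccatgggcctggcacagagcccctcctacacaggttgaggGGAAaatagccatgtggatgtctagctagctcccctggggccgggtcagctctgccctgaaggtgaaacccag
Over all tested intervals the central 300 bases held a median of 3 such cores, with quartiles of 2 and 5, so the *Etv1* promoter window lay above the upper quartile. A GGAA core alone does not set a window apart: 96.6% of all intervals had one, and so did 91.2% of the 34 member sites.

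A longer form, CCGGAAG, is close to the consensus read by Gabpa and the ternary complex factors. Searched on both strands of the whole interval, it was found at 3 of the 34 member sites (8.82%), against 22.4% of the 20542 tested intervals within 3000 bp of any TSS. The 4 matches at these 3 sites are shown with 11 bases on each side and the match in capitals. Matches in distal intervals near member genes are not shown.
Fli1 (chr9:32348689-32348717, minus strand): gcgccggggtcCCGGAAGacgtggccgct
Gabpa, first match (chr16:84835093-84835121, minus strand): cggagccagggCCGGAAGtagaacggtgg
Gabpa, second match (chr16:84835265-84835293, minus strand): agctgagggacCCGGAAGcacttaccctc
Elk4 (chr1:133904118-133904146, plus strand): cggcccctcccCCGGAAGtgacgctcgcg
The shorter GGAAGT was found at 21 member sites (61.8%), near its share of 57.7% among all intervals within 3000 bp of a TSS. A match describes the sequence and is not evidence of binding.

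Reads in intervals numbered between 21356440 and 37151163 per library. Of all 119603 tested intervals, edgeR's quasi-likelihood test called 21.3% gained and 14.2% lost in +HOT, and 21791 gained and 22832 lost, in place of 25433 and 17008, when the scaling was computed from intervals over 3000 bp from a TSS alone. A site was called lost or gained at a Benjamini-Hochberg adjusted p under 0.05 over all tested intervals and an absolute log2 fold change (+HOT over -HOT) over 0.40. The promoter interval of *Ash2l* itself gave 35.6 and 31.6 CPM (reads scaled by library size and TMM factor) without HOT and 30.9 and 25.3 CPM with HOT, and lies outside the deleted exon, so it does not check the deletion. All 10 fibroblast markers had an open promoter (13.2 to 79.1 CPM in -HOT), while the blood markers *Ptprc* and *Itgam* had no interval there. Of the marker genes with a site, 5 of 10 fibroblast, 2 of 3 blood, 2 of 4 endothelial and 4 of 4 epithelial promoters were lost. By the strongest site of each gene, 23.1% of all genes with a site were lost. The marker lists are short, with 3 to 10 genes with a site. Summed over each list, the levels in -HOT and +HOT were 448 to 469 and 347 to 356 CPM for fibroblast, 51.7 to 54.1 and 33.1 to 35.6 CPM for blood, 29.7 to 33.1 and 25.1 to 27.3 CPM for endothelial and 30.8 to 32.0 and 19.2 to 20.2 CPM for epithelial markers, with no interval at *Tie1*, *Krt18* and *Cldn4*. The part of these shifts in the values of the members was not tested. In such bulk libraries, a site closed in a share of the cells and a site less open in every cell cannot be told apart.

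Of the 23 members, 21 had at least 1 site: 11 genes had 1 and 10 had 2 or more, and *Spi1* and *Spib* had none. All 34 sites passed the filter on low counts. In +HOT, 8 of them were lost (23.5%) and 2 were gained (5.88%), by edgeR. Among all tested intervals within 3000 bp of a TSS, 23.5% were lost and 7.07% gained, so the shares of lost and gained member sites were near those of promoters in general. The median was a log2 fold change of -0.21 over the member sites, -0.34 to -0.09 in the 4 pairings of a +HOT with a -HOT library, and -0.21 over all promoter intervals. Both +HOT libraries lay below both -HOT libraries at 20 of the 34 sites, against 59.0% of promoter intervals, and above them at 2, against 14.3%; over all tested intervals these shares were 34.7 and 36.1%. Taking for each gene the site with the highest signal, 4 of 21 were lost and 1 was gained, where 23.1% and 4.78% of all genes were. DESeq2 called 7 of the member sites lost, where 20.6% of promoter intervals were, and 0 gained, where 3.97% were, and 1 site was higher in +HOT at an unadjusted p under 0.05 in DESeq2.

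**Figure D1:**
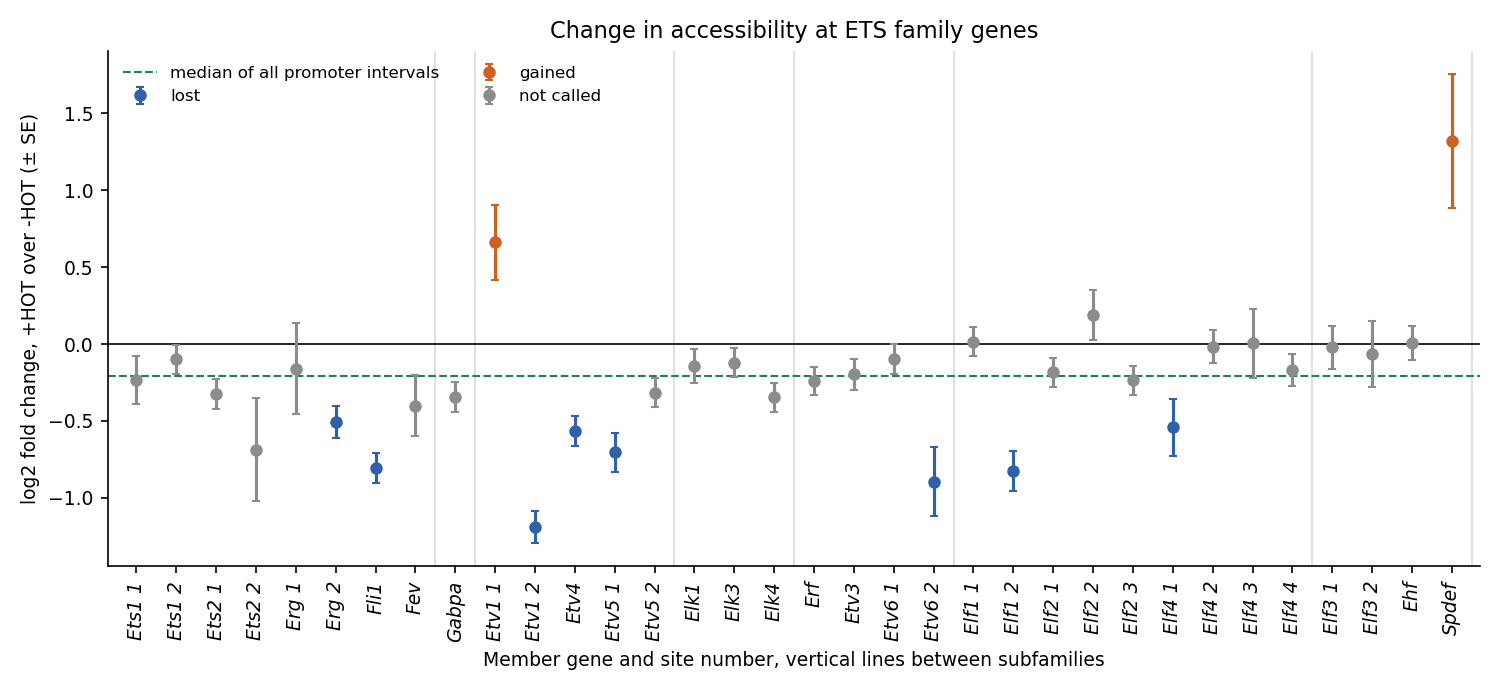
Change of each of the 34 member sites, as log2 fold change of +HOT over -HOT with its SE on the y axis, and sites by gene and subfamily on the x axis; colours mark sites called lost, gained or not called, and the dashed line is the median of all promoter intervals (-0.21). The 8 lost sites lie between -0.51 and -1.19, and *Spdef* and the upstream site of *Etv1* lie above 0.

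The PEA3 group, *Etv1*, *Etv4* and *Etv5*, held 3 of the 8 lost sites and 1 of the 2 gained ones among its 5 sites, with a median log2 fold change of -0.56. Among all promoter intervals, 23.5% were lost and 7.07% gained, and a group of 5 sites is small for such a comparison. The *Etv1* promoter (chr12:39504792-39507436, centred 147 bp into the gene) gave 27.3 and 29.2 CPM in the -HOT libraries and 12.6 and 12.1 CPM in the +HOT libraries. Both +HOT values lay far below both -HOT values, and the fitted level was 2.28-fold lower (log2 fold change -1.19 ± 0.11, adjusted p = 2.03e-18). Only 0.759% of all promoter intervals had a lower fold change. The weak upstream interval (chr12:39504021-39504659, centred at -1627 bp from the TSS) went the other way, with 1.64 and 2.04 CPM without HOT and 2.42 and 3.43 CPM with HOT. The groups did not overlap (log2 fold change 0.66 ± 0.25, adjusted p = 0.0228), but the call rested on single libraries: it did not stand without -HOT replicate 1 (log2 fold change 0.50, adjusted p = 0.219), without +HOT replicate 2 (0.40, adjusted p = 0.302), with DESeq2 (0.66, adjusted p = 0.151) or with the abundance trend removed (0.43, adjusted p = 0.153). Of the 3 distal intervals nearest to *Etv1*, 1 was gained, 1 was lost and 1 was not called. The gained one, in an intron 5383 bp after a TSS of the gene (chr12:39515056-39515902), had 4.78 and 4.69 CPM without HOT and 8.50 and 7.77 CPM with HOT, a log2 fold change of 0.78 ± 0.15 (adjusted p = 7.31e-06). The lost one, 104480 bp after a TSS (chr12:39655141-39656356), had 14.7 and 12.7 CPM without HOT and 9.76 and 8.40 CPM with HOT, a log2 fold change of -0.59 ± 0.12 (adjusted p = 2.92e-05). The third, in an intron (chr12:39570132-39571076), had 11.5 and 12.3 CPM without HOT and 12.2 and 15.2 CPM with HOT, a log2 fold change of 0.20 ± 0.12 (adjusted p = 0.161), and its groups overlapped.

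The *Etv4* promoter was lost with less amplitude, and at *Etv5* a weaker site in the gene body was lost while the promoter was not called. The *Etv4* promoter (chr11:101645065-101647320) gave 44.5 and 42.5 CPM in the -HOT libraries and 27.3 and 31.7 CPM in the +HOT libraries. The groups did not overlap (log2 fold change -0.56 ± 0.10, adjusted p = 7.54e-07), and the call was lost with the abundance trend or the GC trend removed. At the *Etv5* promoter (chr16:22438396-22440935) the values were 65.1 and 61.1 CPM without HOT and 53.7 and 47.5 CPM with HOT. Here, too, both +HOT libraries were lower, yet the change was under the fold minimum (log2 fold change -0.32 ± 0.09, adjusted p = 0.00385); without +HOT replicate 1 it passed (-0.41, adjusted p = 4.40e-04). The smaller site in the *Etv5* gene body (chr16:22434397-22435149, 1814 bp after the TSS) gave 12.3 and 11.4 CPM (-HOT) against 6.53 and 8.17 CPM (+HOT) and was lost (log2 fold change -0.70 ± 0.13, adjusted p = 3.03e-06), as it was under all 11 alternatives.

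Of the ETS and ERG group, *Fli1* and *Erg*, regulators of blood and endothelial development, were lost at their main site, and *Ets1* and *Ets2*, the founding members and targets of ERK, were not. *Fli1* (chr9:32347622-32350620, which holds the match shown above) gave 40.2 and 36.8 CPM in the -HOT libraries and 23.2 and 20.8 CPM in the +HOT libraries. This is a 1.75-fold lower level (log2 fold change -0.81 ± 0.10, adjusted p = 1.86e-11), and it was called under all 11 alternatives. *Erg* (chr16:95806375-95808731) gave 22.6 and 23.3 CPM without HOT and 16.2 and 16.1 CPM with HOT, again with no overlap (log2 fold change -0.51 ± 0.10, adjusted p = 2.68e-05). With the abundance trend removed the *Erg* change was -0.31 and no longer passed the fold minimum.

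The values at the *Ets1* promoter (chr9:32502868-32504844) overlapped between conditions, at 43.3 and 37.7 CPM in the -HOT libraries and 39.0 and 36.7 CPM in the +HOT libraries (log2 fold change -0.10 ± 0.10, adjusted p = 0.414). At *Ets2* (chr16:95923309-95925329) the values were 37.3 and 36.1 CPM without HOT and 31.7 and 26.6 CPM with HOT. The groups did not overlap, and the change passed the p threshold but not the fold minimum (log2 fold change -0.33 ± 0.10, adjusted p = 0.00389), which it did pass with distal scaling (-0.41, adjusted p = 9.09e-04) and without +HOT replicate 1 (-0.47, adjusted p = 2.28e-04). *Fev*, known from serotonergic neurons, had a single weak site 2652 bp after its TSS (chr1:74928846-74929643), at 5.00 and 3.48 CPM (-HOT) against 3.34 and 3.12 CPM (+HOT) (log2 fold change -0.40 ± 0.20, adjusted p = 0.0902). The *Fev* site was called lost with distal scaling (-0.48, adjusted p = 0.0373), with the abundance trend removed (-0.54, adjusted p = 0.0253) and without -HOT replicate 2 (-0.63, adjusted p = 0.0253). The 3 further sites of *Ets1*, *Ets2* and *Erg* were weak, with -HOT values of 1.37 to 7.16 CPM, and were not called.

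*Gabpa* encodes the DNA-binding subunit of GABP, a factor of mitochondrial and ribosomal gene promoters. Its promoter (chr16:84834535-84836605), shared with the divergent gene *Atp5j*, gave 46.0 and 45.3 CPM in the -HOT libraries and 38.8 and 32.9 CPM in the +HOT libraries. Both +HOT libraries were lower, and the change passed the p threshold but stayed under the fold minimum (log2 fold change -0.35 ± 0.10, adjusted p = 0.00195), except with distal scaling (-0.42, adjusted p = 4.93e-04) and without +HOT replicate 1 (-0.47, adjusted p = 1.01e-04). The ternary complex factors had 3 promoter sites, none called by edgeR or DESeq2 and 1 at an unadjusted p under 0.05 by edgeR. *Elk4* (chr1:133902397-133905305) came nearest, with 57.9 and 57.6 CPM without HOT and 49.4 and 41.3 CPM with HOT and no overlap (log2 fold change -0.35 ± 0.09, adjusted p = 0.00173), and was called lost with distal scaling (-0.42, adjusted p = 4.90e-04) and without +HOT replicate 1 (-0.48, adjusted p = 3.80e-05). At *Elk1* (chrX:20527257-20528428) the values were 18.2 and 19.4 CPM (-HOT) against 19.7 and 14.0 CPM (+HOT), where replicate 1 of +HOT was the highest of the 4 libraries and replicate 2 the lowest (log2 fold change -0.14 ± 0.11, adjusted p = 0.287). Without +HOT replicate 1 the *Elk1* site was called lost (-0.42, adjusted p = 0.00473), and without +HOT replicate 2 its log2 fold change was 0.071. *Elk3*, a ternary complex factor that can repress, gave 39.0 and 38.2 CPM without HOT and 35.7 and 35.3 CPM with HOT (chr10:92771499-92774448, log2 fold change -0.12 ± 0.10, adjusted p = 0.308).

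Among the repressors, the main promoters of *Erf*, *Etv3* and *Etv6* were not called. *Erf* had the longest member site (chr7:26032719-26037038, 4320 bp), at 67.8 and 69.2 CPM in the -HOT libraries and 58.1 and 57.8 CPM in the +HOT libraries (log2 fold change -0.24 ± 0.09, adjusted p = 0.0278). *Etv3* (chr3:87328882-87330586) gave 23.4 and 22.0 CPM (-HOT) against 20.6 and 18.9 CPM (+HOT) (log2 fold change -0.20 ± 0.10, adjusted p = 0.107). *Etv6*, a repressor needed in blood stem cells, was open at its promoter (chr6:133984576-133986733) with 41.7 and 38.4 CPM without HOT and 40.6 and 34.2 CPM with HOT, and the groups overlapped (log2 fold change -0.10 ± 0.10, adjusted p = 0.437). A short interval of 286 bp in an intron of *Etv6* (chr6:133987117-133987402, 1208 bp after the TSS) differed: it gave 3.72 and 3.72 CPM in the -HOT libraries and 1.93 and 2.08 CPM in the +HOT libraries and was lost (log2 fold change -0.89 ± 0.23, adjusted p = 6.33e-04) under all 11 alternatives.

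The ELF group, *Elf1*, *Elf2* and *Elf4*, regulators of blood cells and of many other tissues, had 9 sites, of which 2 were lost. *Elf1* had intervals at different starts. The stronger one (chr14:79880196-79883003, within 3000 bp of a TSS of *Wbp4* as well) gave 54.0 and 51.8 CPM in the -HOT libraries and 55.3 and 51.6 CPM in the +HOT libraries, and all 4 libraries were close together (log2 fold change 0.02 ± 0.09, adjusted p = 0.910). The second (chr14:79915084-79916252, 175 bp after another TSS of the gene) gave 12.3 and 10.7 CPM without HOT and 6.74 and 6.23 CPM with HOT. It was 1.77-fold lower in +HOT with no overlap (log2 fold change -0.83 ± 0.13, adjusted p = 1.12e-07), also under all 11 alternatives; the difference between the 2 promoters was not tested as such. The 2 main promoters of *Elf2* were not called. The stronger (chr3:51079612-51081975) gave 49.0 and 45.5 CPM (-HOT) against 44.8 and 38.2 CPM (+HOT) (log2 fold change -0.19 ± 0.10, adjusted p = 0.106), and the one nearest to its TSS (chr3:51143342-51146489) gave 46.2 and 41.0 CPM (-HOT) against 37.5 and 36.6 CPM (+HOT) (log2 fold change -0.24 ± 0.10, adjusted p = 0.0355). The strongest *Elf4* site (chrX:45806409-45808154), at 20.0 and 15.0 CPM without HOT and 17.7 and 16.98 CPM with HOT, showed wider spread between the -HOT replicates than between conditions (log2 fold change -0.02 ± 0.11, adjusted p = 0.908). A weaker *Elf4* site in an intron (chrX:45805419-45806149) gave 4.92 and 5.05 CPM without HOT and 3.34 and 3.52 CPM with HOT and was lost (log2 fold change -0.54 ± 0.18, adjusted p = 0.0123), but not with DESeq2 (adjusted p = 0.0940), nor when -HOT replicate 1, -HOT replicate 2 or +HOT replicate 1 was left out (log2 fold changes of -0.50 to -0.57, adjusted p from 0.0565 to 0.0739). The remaining 3 sites of *Elf2* and *Elf4* had log2 fold changes of -0.17 to 0.19 and were not called.

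Of the epithelial factors, *Elf3* and *Ehf* had values that overlapped between conditions. The *Elf3* site nearest to its TSS (chr1:137155290-137156275) gave 8.11 and 6.93 CPM (-HOT) against 7.34 and 7.54 CPM (+HOT) (log2 fold change -0.02 ± 0.14, adjusted p = 0.916), and the second *Elf3* site was weaker (log2 fold change -0.06). *Ehf* had a site at -2559 bp from its TSS (chr2:103125366-103127587) with 14.3 and 12.3 CPM (-HOT) against 13.6 and 13.1 CPM (+HOT) (log2 fold change 0.01 ± 0.11, adjusted p = 0.972). *Spdef* was almost closed in -HOT. Its single site (chr17:27865156-27865480, 325 bp long) had 10 and 15 reads in the -HOT libraries and 21 and 27 in the +HOT libraries, or 0.278 and 0.502 CPM without HOT and 0.737 and 1.22 CPM with HOT. It was 2.49-fold higher (log2 fold change 1.32 ± 0.44, adjusted p = 0.00982), and the call was lost without -HOT replicate 1, without +HOT replicate 2, with DESeq2 and with the abundance trend removed, over a range of log2 fold changes of 0.86 to 1.77. Only 0.746% of all intervals had a lower mean signal. *Spi1* and *Spib*, the factors of myeloid and lymphoid cells, had no interval within 3000 bp of a TSS.

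**Figure D2:**
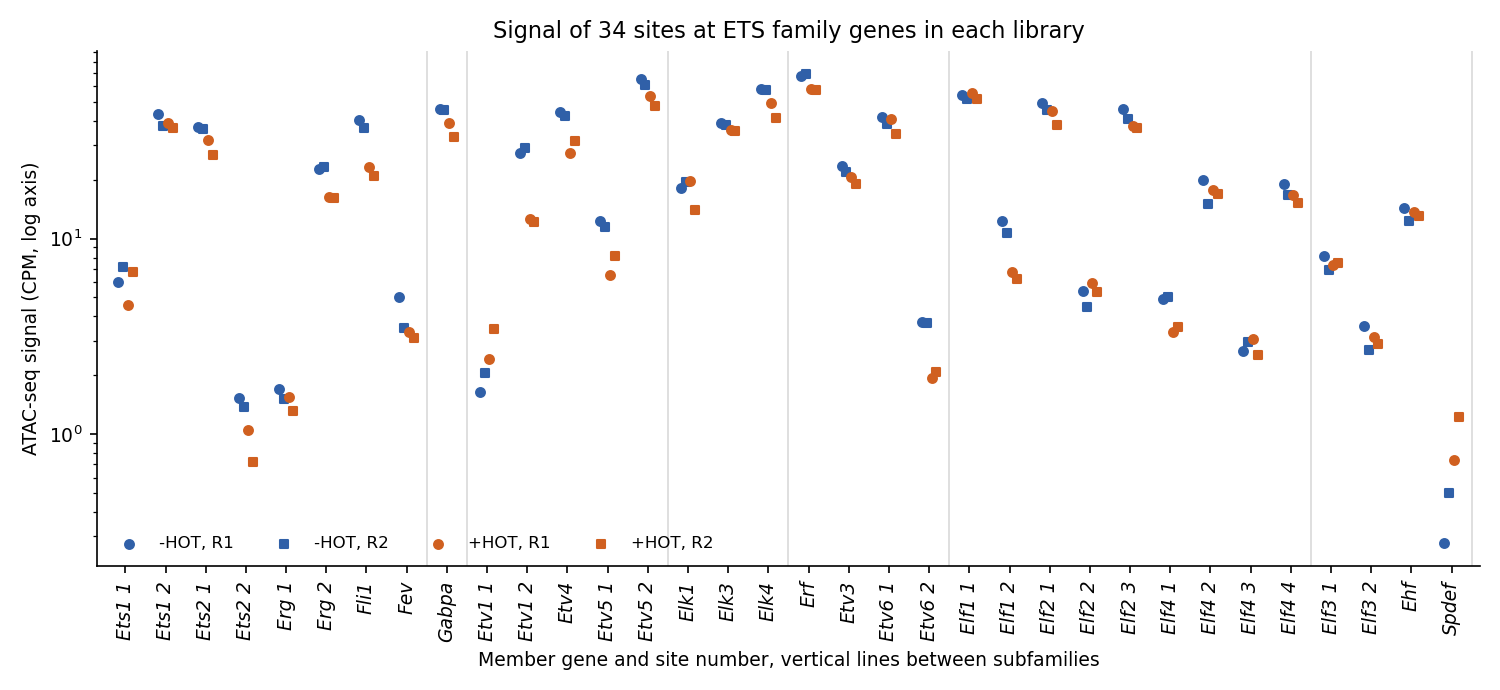
Signal of the 34 member sites in each of the 4 libraries, in CPM on a log axis, with sites by gene and subfamily on the x axis; blue is -HOT, orange is +HOT, circles are replicate 1 and squares replicate 2. The promoters of *Etv1*, *Fli1* and the second promoter of *Elf1* show both +HOT libraries below both -HOT libraries, while the main *Elf1* promoter stays between 51.6 and 55.3 CPM and *Spdef* lies at the bottom of the range.

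Away from promoters, 195 tested intervals over 3000 bp from any TSS had a member gene as their nearest gene. In +HOT, 34 of them were lost (17.4%) and 20 gained (10.3%), whereas 12.3% of all 98791 distal intervals were lost and 24.1% gained. Their median log2 fold change was -0.12 (-0.13 to -0.07 in the 4 library pairings), against 0.07 over all distal intervals. These intervals cluster at a few genes, 49 at *Ets1*, 23 at *Etv6* and 17 at *Erg*, and neighbours are not independent. With all distal intervals cut into 5 bins of equal size by mean signal, calls varied with signal. Among those without a CCGGAAG match, 31.8% were gained and 4.87% lost in the lowest bin. In the highest bin, 6.55% were gained and 18.7% lost. The 195 intervals were not set against distal intervals of like signal, so the part of signal in their lower gained and higher lost share was not tested. *Etv6* had 7 lost and 1 gained interval with a median of -0.44, *Elf1* 4 lost of 8 with a median of -0.47, and *Elk3* 3 lost of 12 with a median of -0.31. *Etv3* had 3 gained of 9, with a median of 0.14. *Spi1*, which had no promoter interval, had 3 distal ones of which 1 was lost, and *Gabpa* and *Spib* had none.

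Several distal intervals, picked after their values were seen, show how far single elements of a locus parted. At *Ets1*, whose 2 promoter sites were not called, 8 distal intervals were lost and 5 gained. The intron interval 13841 bp after the TSS (chr9:32516962-32517974) had 26.1 and 26.5 CPM without HOT and 16.5 and 13.9 CPM with HOT, a log2 fold change of -0.79 ± 0.10 (adjusted p = 3.29e-10). The interval at -40766 bp from the TSS (chr9:32402797-32403283) had 4.03 and 4.32 CPM without HOT and 1.58 and 1.72 CPM with HOT, a log2 fold change of -1.34 ± 0.23 (adjusted p = 6.34e-07). Gained ones lay far off, as the interval 711864 bp from the TSS (chr9:33215044-33215939) with 1.19 and 1.24 CPM without HOT and 3.83 and 4.42 CPM with HOT, a log2 fold change of 1.75 ± 0.24 (adjusted p = 1.89e-09). At *Erg*, whose promoter was lost, an intron interval (chr16:95715587-95715971) was weak in -HOT and gained, with 0.417 and 0.770 CPM without HOT and 2.70 and 2.21 CPM with HOT, a log2 fold change of 2.08 ± 0.33 (adjusted p = 8.84e-08). Upstream of *Elf2*, an interval (chr3:51161586-51163663) had 52.4 and 52.1 CPM without HOT and 30.8 and 31.5 CPM with HOT, a log2 fold change of -0.75 ± 0.10 (adjusted p = 1.06e-10). Which gene a distal interval acts on was not tested.

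**Figure D3:**
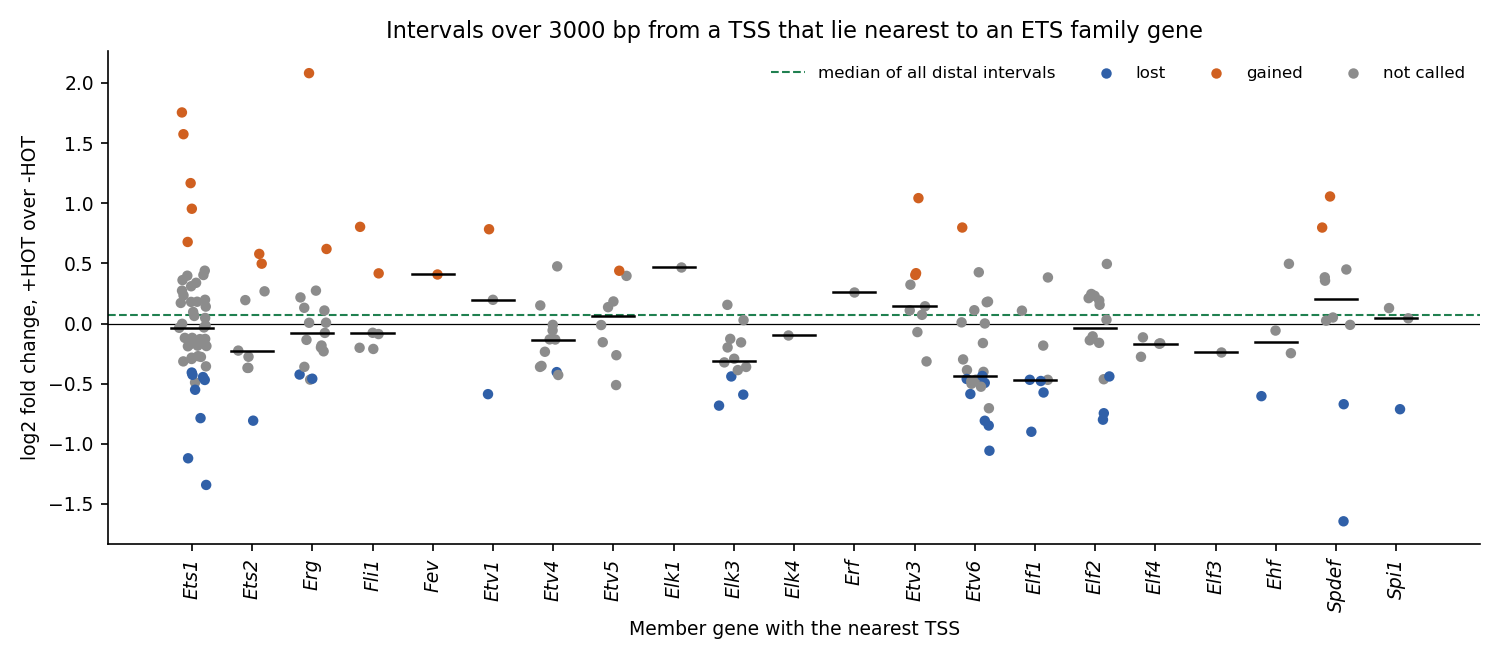
Log2 fold change (+HOT over -HOT, y axis) of the 195 distal intervals by the member gene whose TSS is nearest (x axis); each point is an interval, coloured by its call, black bars are medians per gene and the dashed line is the median of all distal intervals (0.07). *Etv6* and *Elf1* have their medians at -0.44 and -0.47, and the *Ets1* intervals spread from -1.34 to 1.75.

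Footprints show the same family from the side of its DNA motifs. For every motif the authors deposited 2 values per condition from merged libraries: the tag count, the transposase signal around the motif per site, and the protection score, which is larger where the motif itself is spared from cutting relative to its flanks. With 1 value per condition there is no replicate check and no test. Of the 26 ETS motifs, 19 had at least 1000 sites (1089 to 12243), out of 559 such motifs. All 19 had a lower tag count in +HOT, by 2.95% (SPI1) to 6.70% (ETS1) of the -HOT value, with a median difference of -0.0482, against -0.000575 over all 559 motifs, of which 51.0% were lower. The 7 rarer ETS motifs were lower as well. Among the 559 motifs, 17 of the 19 were within the 100 with the most negative difference, and 10 within the first 50. The motifs share the GGAA core and can match the same sites, so they are not independent measurements of the family.

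The largest differences in tag count belonged to motifs that were strong in -HOT. ELK1 went from 1.49 to 1.40, ELK4 from 1.24 to 1.16, ELF4 from 1.17 to 1.09, ETS2 from 1.21 to 1.14 and ELF5 from 0.990 to 0.934. ELK1 had the second most negative of all 559 differences and also the second highest tag count in -HOT. The smallest were those of SPI1 (0.703 to 0.682), SPIC (0.722 to 0.696), SPIB (0.787 to 0.755), ETV4 (0.804 to 0.771) and ELF1 (0.840 to 0.805). Since differences were more negative where tag counts were high, the ETS motifs were set against others of like strength. With the 559 motifs ordered by -HOT tag count and cut into 4 bins of equal size, the median difference was -0.0349 over 10 ETS motifs and -0.00606 over 129 others in the third bin, and in the highest bin it was -0.0560 over 9 ETS motifs and -0.0323 over 131 others.

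The protection score differed less evenly. It was lower in +HOT for 16 of the 19 motifs, with a median difference of -0.0271, against -0.000539 over all 559 motifs, of which 51.2% were lower. Against motifs of like tag count the contrast was uneven. In the third bin of -HOT tag count it was lower for all 10 ETS motifs and 61.2% of the 129 others (medians of -0.0281 and -0.00618). In the highest bin it was lower for 66.7% of the 9 ETS motifs and 68.7% of the 131 others (medians of -0.0232 and -0.0144). ETV5 went from 0.958 to 0.894, EHF from 0.972 to 0.908, ETV2 from 0.790 to 0.736, SPIB from 0.756 to 0.715 and ELF3 from 0.582 to 0.543. The score was higher for ELF4 (-0.145 to -0.0650), SPDEF (0.0769 to 0.0872) and ELK1 (-0.0275 to -0.0183) only, and ETS2 (-0.00651 to -0.0112) and ETV1 (0.522 to 0.5005) came next. ELF4 and ELK1 thus combined a lower tag count with a higher protection score, both from scores under 0, at which the motif was cut more than its flanks. The motif names a sequence, and which of the 23 factors occupied it was not measured. Beside this, the promoters of *Elk1* and *Elk4* were not called, and the promoter of *Etv1* was lost while the tag count of the ETV1 motif went from 0.746 to 0.710.

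**Figure D4:**
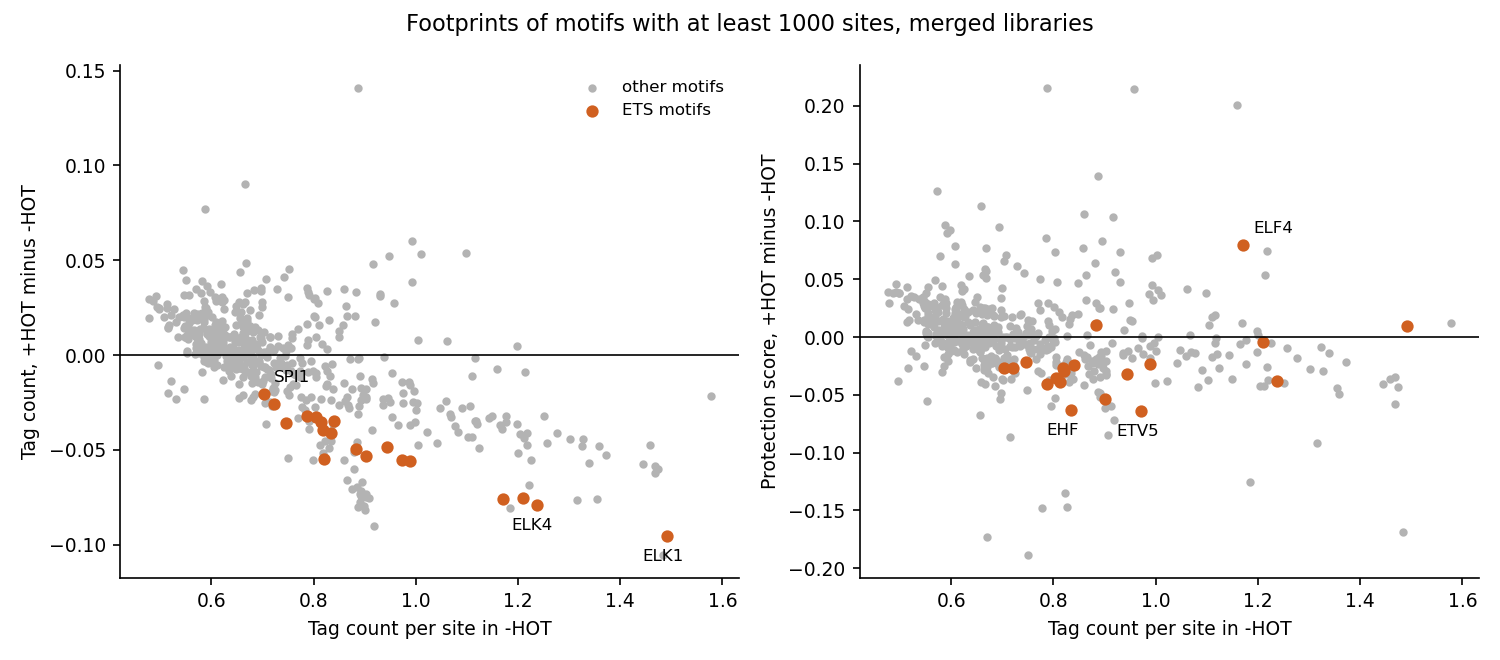
Difference in tag count (left) and in protection score (right) between +HOT and -HOT on the y axes, against the tag count per site in -HOT on the x axes, for the 559 motifs with at least 1000 sites; orange points are the 19 ETS motifs and grey points the 540 others, from merged libraries with no error. All ETS points lie below 0 on the left, with ELK1 lowest, and 16 of 19 on the right.

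The counts per library allowed a look at intervals with a motif match, with the technical replicates kept apart. Binding was not measured. CCGGAAG was present in 28.01% of the 15203 tested intervals within 1000 bp of a TSS and in 3.48% of the 98791 distal ones. Near the TSS, the median log2 fold change was -0.25 with the motif (4259 intervals, -0.34 to -0.17 in the library pairings) and -0.23 without (10944 intervals, -0.31 to -0.15). Both sets come from the same 4 libraries, so the overlap of these ranges does not compare them. The lost shares there were 24.1% with and 25.4% without the motif, and the gained shares 0.399 and 5.01%. The 2 sets differed in signal, with medians of 25.14 CPM with and 16.01 CPM without the motif. These intervals were cut into 5 bins of equal size by mean signal. The lowest bin held 226 intervals with and 2815 without the motif, with gained shares of 3.54 and 16.4%. From bin 3 upwards, gained shares were 0.653% or less in both sets. Among distal intervals the medians lay further apart: the 3441 with the motif had a median of -0.08 (-0.08 to -0.06), with 13.4% gained and 18.2% lost, and the 95350 without had a median of 0.08 (0.06 to 0.10), with 24.4% gained and 12.1% lost. The motif-bearing distal intervals had more reads (median of 7.17 against 3.85 CPM), a higher GC content (48.4 against 44.8%) and more length (1055 against 727 bp). With the distal intervals cut into 5 bins of equal size by mean signal, the median was lower with the motif in each bin, from 0.04 against 0.26 in the lowest to -0.17 against -0.12 in the highest. In bin 4 the values, 0.02 and 0.04, were close. The difference between distal intervals with and without the motif, -0.15, became -0.05 with the abundance trend removed and -0.10 with the GC trend removed.

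**Figure D5:**
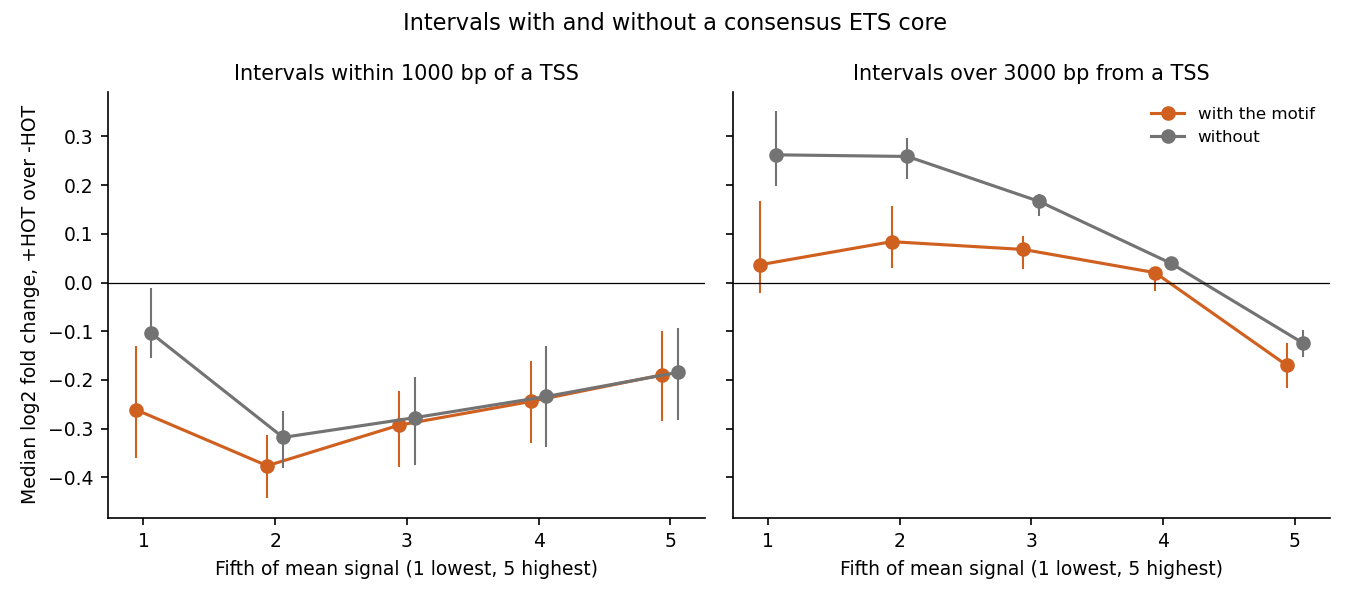
Median log2 fold change (+HOT over -HOT, y axis) of intervals with (orange) and without (grey) a CCGGAAG match, by 5 bins of mean signal (x axis), near a TSS on the left and distal on the right; vertical lines span the 4 pairings of a +HOT with a -HOT library. On the right the orange points lie below the grey ones in all 5 bins, from 0.04 against 0.26 to -0.17 against -0.12, and on the left the points nearly coincide in the upper bins.

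Genes around the family, given by lists and by the strongest site of each gene, varied by list. Over all lists, 18 of 100 genes with a site were lost, against 23.1% of all genes, and 0 were gained by edgeR, with 2 higher at an unadjusted p under 0.05 and 0 gained by DESeq2. Of the 11 feedback genes of ERK signalling linked to ETV factors, 7 were lost, with a list median of -0.42. Means ± SD of 2 libraries are given first for -HOT and then for +HOT. The lost genes were led by *Spry1*, an inhibitor of receptor kinase signalling (15.4 ± 1.90 to 9.08 ± 0.630 CPM, log2 fold change -0.77 ± 0.12, adjusted p = 3.73e-08), *Dusp4*, a phosphatase of ERK (45.9 ± 1.05 to 30.5 ± 1.56 CPM, log2 fold change -0.59 ± 0.10, adjusted p = 1.93e-07), and *Il17rd*, a brake on FGF signalling (31.5 ± 1.40 to 22.4 ± 1.78 CPM, log2 fold change -0.49 ± 0.10, adjusted p = 2.40e-05). The remaining lost genes of the list were *Spry4*, *Ccnd1*, *Dusp6* and *Dusp5*, with log2 fold changes of -0.46, -0.46, -0.42 and -0.41 in this order. These changes sit close to the fold minimum, and the count was 3 with library totals, 2 with the GC trend removed and 1 with the abundance trend removed.

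Upstream of the family, 3 of 19 genes of RAS and ERK signalling were lost: *Rps6ka1*, an ERK-activated kinase (24.8 ± 2.23 to 13.5 ± 0.461 CPM, log2 fold change -0.88 ± 0.11, adjusted p = 6.39e-12), *Nras* (25.2 ± 0.932 to 14.8 ± 0.319 CPM, log2 fold change -0.77 ± 0.10, adjusted p = 5.84e-10) and the scaffold *Ksr1* (21.7 ± 4.06 to 14.8 ± 1.51 CPM, log2 fold change -0.55 ± 0.11, adjusted p = 1.17e-05). Of 20 partners and cofactors, *Runx1*, which binds DNA together with Ets1, was lost (63.5 ± 3.46 to 47.7 ± 2.70 CPM, log2 fold change -0.41 ± 0.09, adjusted p = 1.66e-04). *Gabpb2*, a partner subunit of Gabpa, and the coactivator *Ncoa1* had log2 fold changes of -0.34 and -0.38 (adjusted p = 0.00249 and 0.00161) and were not called. Of 18 immediate-early targets of SRF and Elk factors, *Ier2* (46.8 ± 2.83 to 34.9 ± 4.24 CPM, log2 fold change -0.42 ± 0.10, adjusted p = 1.83e-04) and *Egr3* (76.1 ± 3.19 to 57.5 ± 2.05 CPM, log2 fold change -0.40 ± 0.09, adjusted p = 2.07e-04) were lost. The changes of *Runx1*, *Ier2* and *Egr3* sat close to the fold minimum of 0.40.

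Of 11 matrix and invasion genes with a site, 4 were lost: *Plau*, the urokinase gene (20.8 ± 0.184 to 12.9 ± 0.783 CPM, log2 fold change -0.69 ± 0.11, adjusted p = 5.95e-08), the receptor kinase *Met* (24.6 ± 2.06 to 16.3 ± 2.48 CPM, log2 fold change -0.59 ± 0.10, adjusted p = 1.53e-06), *Spp1* (8.88 ± 0.416 to 6.26 ± 0.661 CPM, log2 fold change -0.51 ± 0.14, adjusted p = 0.00172) and *Mmp14*, a membrane protease (log2 fold change -0.42). The *Mmp14* change sat close to the fold minimum of 0.40, and *Mmp3* and *Mmp13* had no site. Of 14 mitochondrial genes bound by GABP in other cells, only *Polrmt*, the mitochondrial RNA polymerase, was lost (22.0 ± 1.02 to 14.5 ± 3.08 CPM, log2 fold change -0.59 ± 0.11, adjusted p = 2.95e-06), with *Tfb1m* just under the fold minimum (log2 fold change -0.40) and *Atp5b* at -0.28 (adjusted p = 0.0143). Of 7 ribosomal and housekeeping promoters 0 were called by edgeR or DESeq2, and 2 had an edgeR unadjusted p under 0.05. Their lowest adjusted p belonged to *Rpl30* (log2 fold change -0.38, adjusted p = 5.97e-04) and *Rps16* (-0.27, 0.0200). The ETS genes outside the members, *Etv2* and *Elf5*, had weak sites of 2.78 and 5.41 CPM in -HOT with log2 fold changes of 0.14 and -0.10 and were not called, and *Spic* had no site.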

How the data were processed

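The authors' reads were trimmed (Trim_Galore), mapped to mm9 with BWA and cleared of PCR duplicates and blacklist regions, and peaks were called with MACS2. Their versions and the way peaks were joined into intervals are not stated. Interval starts were read as 0-based BED starts, which the table does not state, so that a printed start of an interval may be 1 base off. The deposited counts are raw reads per interval and library. The methods name 1 -HOT library amplified with fewer PCR cycles. Footprints come from RGT-HINT on the merged replicates, with JASPAR motifs; the deposited protection score and tag count signal are per motif and condition. Columns of the authors' own fold changes, p-values and activity differences were not used.

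Counts were tested over all intervals with edgeR 4.0.16 (quasi-likelihood, TMM, filterByExpr) in R 4.3.3, without a block; DESeq2 1.42.0 and other scalings, filters and windows were alternatives. The test was checked on simulated counts with 200 changed intervals, far fewer than were called in the data. That check does not bear on the choice of scaling under a broad shift. Replicates of a condition differed by more than sampling noise (chi-square per degree of freedom 2.38 in +HOT and 2.22 in -HOT). TSS and exons came from GENCODE vM1, where *Spi1* is named *Sfpi1*, and sequences from the NCBIM37 (mm9) genome. CPM are TMM-scaled, ± is the SE of a fold change or the SD of 2 libraries, and medians over library pairings used a pseudocount of 0.1 CPM. Named were all members, each called, strongest and nearest site, the 3 called genes of largest change per list, up to 2 uncalled ones where fewer than 2 were called, and the 5 extreme ETS motifs on each side. The members, lists and rules were chosen with earlier results of these data known.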

Additional observations from a re-analysis of the deposited data

How the results depend on the processing

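With 11 alternatives, 5 of the 8 lost member sites, at *Etv1*, *Fli1*, *Etv5*, *Etv6* and *Elf1*, were lost in each. The count of lost sites was 5 with a window of 1000 bp and 14 with no fold minimum. With distal scaling it was 12 of 34, and the share of promoter intervals lost rose as well, from 23.5 to 31.7%. The 2 gained sites became 0 with DESeq2 or with the abundance trend removed, 1 with a window of 1000 bp, and 0 to 2 when leaving out 1 library, 0 without -HOT replicate 1 and without +HOT replicate 2. The member median of -0.21 was -0.082 with the GC trend removed, where that of all promoter intervals was -0.13, -0.12 with the abundance trend removed, where promoters were at -0.073 and 17% of them lost against 23.5% of member sites, and -0.15 to -0.28 when leaving out 1 library. DESeq2 called 15087 intervals gained, against 25433 by edgeR; leaving out 1 library gave 18620 to 21369 gained and 13891 to 16266 lost. Library totals moved the median of all intervals by 0.07.

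Over the related lists, 18 lost genes became 10 with library totals, 8 with the GC trend removed, 5 with the abundance trend removed and 11 to 24 when leaving out 1 library (11 without +HOT replicate 2), and 0 gained genes became 2 with the abundance trend removed, 1 with the GC trend removed and 0 to 1 when leaving out 1 library. The difference between intervals with and without CCGGAAG was -0.019 near a TSS, but -0.037 with GGAAGT and 0.029 with the abundance trend removed; among distal intervals -0.15 became -0.11 within 250 bp of the centre, -0.049 with the abundance trend removed and -0.10 with the GC trend removed. On the log2 ratio scale the median tag count ratio of ETS motifs was -0.08, and the protection ratio could be computed for 16 of 19 motifs.

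Only uncalled sites with small changes turned sign. With the abundance trend removed, *Ets1* came to 0.10, *Elk1* to 0.047, *Elk3* to 0.083, *Etv3* to 0.0051, *Etv6* to 0.11, *Elf2* to 0.015, *Elf4* to 0.17 and *Elf3* to 0.012 at their strongest sites. With the GC trend removed, *Etv6* came to 0.049, *Elf2* to 0.030, *Elf4* to 0.31 and *Ehf* to -0.013. Library totals gave 0.052 at *Elf4* and 0.049 at *Elf3*, distal scaling gave -0.063 at *Elf1* and -0.073 at *Ehf*, and DESeq2 gave -0.0021 at *Ehf*. Leaving out 1 library gave ranges of -0.20 to 0.00059 at *Ets1*, -0.42 to 0.071 at *Elk1*, -0.23 to 0.019 at *Etv6*, -0.037 to 0.064 at *Elf1*, -0.21 to 0.21 at *Elf4*, -0.13 to 0.097 at *Elf3* and -0.10 to 0.12 at *Ehf*. The cause of these changes was not tested. Of 297 values of the 27 named sites, 244 kept direction and call, 15 lost and 11 gained a call (at *Ets2*, *Fev*, *Gabpa*, *Etv5*, *Elk1* and *Elk4*), and 27 turned sign.

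The replicate number as a block gave 25666 gained and 17131 lost intervals and the same counts of member sites, 2 gained and 8 lost. Equal numbers do not mark a shared sample, and deviations of equally numbered libraries correlated with r = 0.0409 across intervals. The depth limits weak sites: *Spdef* rested on 10 to 27 reads per library. No outlier check is possible with 2 libraries per condition.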
